A study of Homo sapiens with 8 samples.

Results

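Among the m6A peaks listed for U251 cells, 852 of 42272 were assigned to long intergenic noncoding RNA genes, chosen as all peaks whose gene name starts with LINC followed by digits, whatever region they were annotated to. They fell on 375 gene names, against 41420 peaks on 16326 other gene names. U251 cells are a long-established line grown from a human glioblastoma. MeRIP-seq sequences fragments of poly(A) RNA bound by an antibody against N6-methyladenosine (m6A) beside the unselected input RNA. The sample labels name 8 libraries, 2 each of cells transfected with si-HNRNPC and collected at 48 h, si-HNRNPC input, si-NC collected at 48 h and si-NC input, where si-HNRNPC is a small interfering RNA against the RNA-binding protein HNRNPC and si-NC the negative control, so that all of the cells carried an siRNA. The labels do not say whether the 48 h libraries are immunoprecipitates. A single peak list was analysed. It gives no value per library and does not name the transfection, so the transfections were not compared, the depth behind each peak is unknown, and no spread between replicates can be given. All 7 markers of glial and glioblastoma cells that were looked up, among them SOX2, NES, VIM and GFAP, had a peak, which shows that their RNA was in the list but is no expression level.

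Long intergenic noncoding RNAs are transcribed from their own loci, and many are capped, spliced and polyadenylated like mRNAs but carry no long open reading frame. m6A is placed on nascent RNA by a nuclear complex built around METTL3 and METTL14, mostly at an adenosine inside short motifs of which GGAC is the best known core, and it is read by proteins that influence splicing, export, stability and translation. On mRNAs the mark gathers near stop codons and in 3′-UTRs, landmarks that a noncoding transcript does not have. Several LINC genes are named elsewhere as regulators in glioma or in neural cells, and some serve as hosts of a microRNA or a circular RNA.

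To show the kind of RNA that lay under these peaks, the first 50 bases of 5 LINC transcripts covered in full by a peak are printed below, 5′ to 3′ on the transcript strand, from RefSeq (GRCh38.p14). The letters GGAC, and GGACT where a T follows, stand in capitals. The first 3 hold them and the last 2 do not.
LINC00667: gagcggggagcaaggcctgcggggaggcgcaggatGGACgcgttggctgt
LINC02226: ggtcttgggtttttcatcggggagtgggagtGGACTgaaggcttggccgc
LINC00265: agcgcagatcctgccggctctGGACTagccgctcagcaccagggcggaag
LINC00205: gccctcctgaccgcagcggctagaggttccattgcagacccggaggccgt
LINC02076: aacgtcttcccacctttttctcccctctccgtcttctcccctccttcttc

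These stretches lie at chr18:5238100-5238149 on the plus strand for LINC00667, chr5:8457515-8457564 on the minus strand for LINC02226, chr7:39733568-39733617 on the plus strand for LINC00265, chr21:45288052-45288101 on the plus strand for LINC00205 and chr17:18411159-18411208 on the plus strand for LINC02076. Over the LINC00667 start, 2 overlapping peaks had a fold enrichment of 9.16 and 13.1, with log10 p of -276 and -174. The other starts were covered by 1 peak each. Its fold enrichment was 6.81 at LINC02226, 3.03 at LINC00265, 13.2 at LINC00205 and 69.7 at LINC02076. Among these 5 starts the highest value stood over one without the motif, and the lowest over one with it. Outside the 5, a start without the motif, that of LINC00665, was covered in full by a peak of only 2.14. LINC02226 and LINC00265 were chosen after their values were seen. No link between motif and fold enrichment can be read from the 5. RefSeq start windows were found for 238 of the 375 LINC names, 271 windows in all, and a LINC peak touched 107 of them in 102 genes. GGAC occurred in 23 of these 107 windows (21.5%, 95% Wilson interval 14.8 to 30.2%) and in 18.9% of all 35116 RefSeq windows of the same length. Of the 271 LINC windows, under a peak or not, 57 held GGAC (21.0%). The share under a peak was thus close to that of LINC starts in general. GGACT, which includes GGAC, occurred in 3 of the 107 windows (2.80%, 0.958 to 7.92%), in 13 of the 271 and in 4.90% of all RefSeq windows. Only the transcript strand was searched. A match is a description of letters and not a methylated site, and a peak can extend far beyond its start window.

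Fewer LINC peaks than other peaks were strongly supported. An FDR under 0.001 was reached by 375 LINC peaks, or 44.0% (40.7 to 47.4%), against 62.3% (61.9 to 62.8%) of other peaks and 62.0% of the whole list. An FDR under 0.05 was reached by 67.0% of LINC peaks, against 81.9% of other peaks and 81.6% of the whole list. The median log10 p was -2.98 for LINC peaks (exact binomial 95% interval -3.31 to -2.69) and -6.24 for other peaks (-6.40 to -6.10). Most of this distance was shared by exon peaks that lie in no UTR, the class that holds most LINC peaks. Among other genes, 48.6% of such exon peaks had an FDR under 0.001 (47.8 to 49.5%), and their median log10 p was -3.56. Antisense-named and clone-named genes, many of them noncoding too, had larger shares of strongly supported peaks than LINC genes, with 52.8% of 824 peaks in antisense-named genes and 50.5% of 3635 peaks in genes that carry a clone name at an FDR under 0.001. At the strong end, 80 LINC peaks (9.39%) had a log10 p under -30, against 26.8% of other peaks. The share was 12.9% in other exon peaks, 17.2% in antisense-named and 15.1% in clone-named peaks. Counted by gene, 199 LINC genes (53.1%) had at least 1 peak with an FDR under 0.001, against 77.2% of other genes. All intervals treat peaks as independent, which peaks of 1 gene are not, and they cover counting error only. No test over peaks was made.

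The fold enrichment of LINC peaks, which the authors gave as a linear immunoprecipitate-to-input ratio, was higher than in the rest of the list although the support was lower. Its median was 7.63 (exact binomial 95% interval 6.78 to 7.63), with quartiles of 5.05 and 10.9, against 5.45 for other peaks (5.36 to 5.45), with quartiles of 2.72 and 8.71. On the log2 scale the 2 medians lay 0.48 apart. Other exon peaks had a median of 5.99 (5.81 to 6.10), antisense-named peaks 6.78 and clone-named peaks 7.63, so LINC peaks stood level with the clone-named genes. Values under 2 were given to 37 LINC peaks (4.34%), against 13.3% of other peaks. Values over 20 were given to 56 LINC peaks (6.57%, 5.10 to 8.44%), against 4.20% of other peaks (4.01 to 4.40%). At both ends LINC peaks were near antisense-named and clone-named peaks, with 5.34% and 4.40% under 2 and 6.31% and 6.99% over 20. The far end of the scale held few LINC peaks. The highest LINC value was 69.7, and 87 other peaks exceeded it, up to 765.

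Much of the fold enrichment of LINC peaks sat on a ladder of fixed values. Whole multiples of 1.09 (1.0893 before rounding) accounted for 533 LINC peaks, or 62.6% (59.3 to 65.7%), against 32.9% of other peaks (32.4 to 33.4%) and 44.2% of other exon peaks. Clone-named peaks had 56.9% (55.2 to 58.5%) and antisense-named peaks 48.8% (45.4 to 52.2%) on the step, so the ladder was common in those genes too. Values spread evenly would have matched a multiple at the printed precision in 3.26% of LINC peaks and 2.60% of other peaks. The most frequent value was 6.54, which is 6 times the step, in 112 LINC peaks (13.1%) against 5.19% of other peaks. At this value 79 of the 112 LINC peaks also shared the same log10 p of -1.31. Higher rungs behaved alike, with 38 of 58 LINC peaks at 7.63 sharing a log10 p of -1.57, 39 of 55 at 8.71 sharing -1.85 and 36 of 47 at 9.80 sharing -2.13. In all, 394 LINC peaks (46.2%) had the same pair of fold enrichment and log10 p as another LINC peak. For 221 of the 375 LINC genes every peak was on the step. Only whole multiples were counted as on the step. Fractions of it were not searched, so the other peaks are not shown to be free of the ladder. What sets the step is not stated, and its part in the higher median was not tested. Without the peaks on the step the median was 4.72 over the 319 LINC peaks left, against 3.63 over other peaks, which is 0.38 on the log2 scale.

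**Figure D1:**
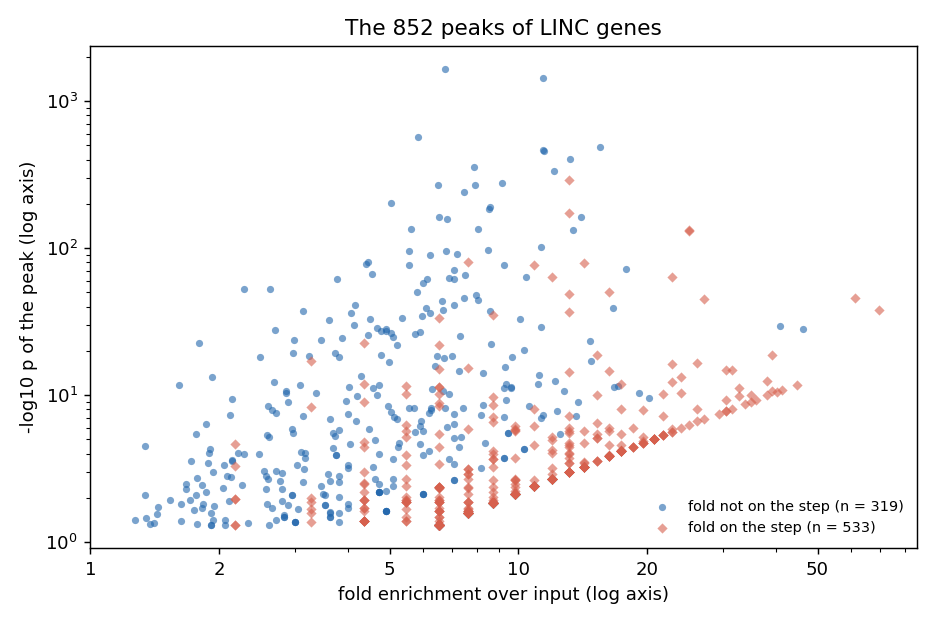
Fold enrichment over input (x, log axis) against the -log10 p (y, log axis) of each of the 852 LINC peaks, with diamonds for the 533 peaks whose fold enrichment is a whole multiple of the step and circles for the 319 others. The diamonds line up in columns and along a lower edge that runs from a fold enrichment of 6.54 upward, while the peaks of lowest p lie among the circles.

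The ladder reached into the strongly supported peaks. With an FDR under 0.001, 165 of 375 LINC peaks were on the step (44.0%, 39.1 to 49.1%), against 38.2% of clone-named, 33.1% of antisense-named and 19.8% of all other peaks. With an FDR of 0.001 or more, 77.1% of 477 LINC peaks were on it, against 54.6% of other peaks. All 56 LINC peaks above a fold enrichment of 20 had an FDR under 0.001, as did all 1740 other peaks above 20. Of the 56 LINC peaks, 53 (94.6%) were on the step, against 82.4% of the 1740 other peaks. Above 20, the fold enrichment of a LINC peak was in nearly all cases a ladder value.

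When peaks of like support were set side by side, LINC peaks had a higher median fold enrichment than other peaks in every bin of log10 p, with overlapping intervals only below -100. Beside other exon peaks alone the medians were equal, at 6.54, between -1.3 and -2, a bin that holds 30.9% of LINC peaks. This is a ladder value, and 79 of the 112 LINC peaks that hold it share a log10 p of -1.31. Where fold enrichment and log10 p come in such fixed pairs, the bin of log10 p also sets the fold enrichment. The comparison within bins is limited to that extent. Between -3 and -5, 119 LINC peaks had a median of 12.0 (8.71 to 13.1), against 4.36 (4.24 to 4.58) for other peaks. Between -10 and -30, 98 LINC peaks had 6.68 (5.72 to 9.37), against 4.13 (4.02 to 4.23). Below -100 the 27 LINC peaks had 9.16 (7.48 to 13.1), against 7.69 (7.60 to 7.84) for other peaks. The share of LINC peaks on the step dropped along the same bins, with 81.0% between -1.3 and -2, 64.7% between -3 and -5, 33.7% between -10 and -30 and 14.8% below -100. For other peaks these shares were 62.4%, 40.7%, 18.8% and 6.21%.

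**Figure D2:**
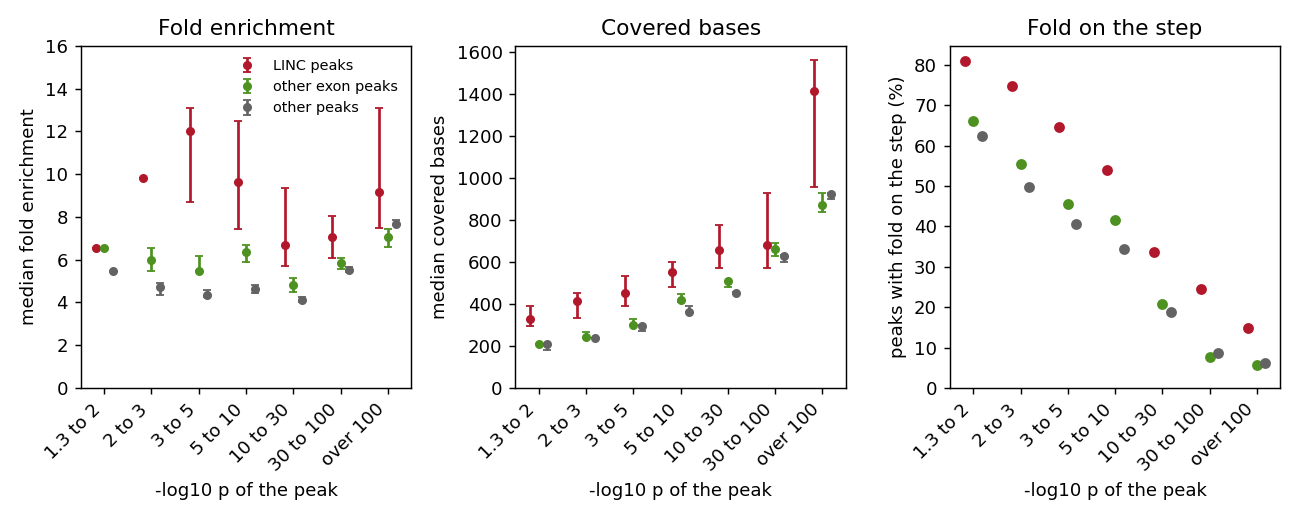
Median fold enrichment (left), median covered bases (middle) and share of peaks on the fold step in percent (right) by -log10 p of the peak, for LINC peaks, other exon peaks and other peaks, with exact binomial 95% intervals of the medians. LINC peaks have 81.0% on the step in the weakest bin and 14.8% in the strongest, and their median covered bases run from 328 to 1417.

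LINC peaks covered more exonic sequence than the rest of the list, and about as much as antisense-named and clone-named peaks. Summed over its exon blocks, the median LINC peak held 481 bases (451 to 525), with quartiles of 270 and 893, against 391 bases (391 to 417) in other peaks, with quartiles of 211 and 777. Other exon peaks covered less still, with a median of 359 bases (352 to 360). The intervals of antisense-named peaks (448 to 510 bases) and clone-named peaks (449 to 479 bases) overlapped that of LINC peaks. Over 1000 bases were covered by 184 LINC peaks (21.6%, 19.0 to 24.5%), against 19.5% of antisense-named, 18.2% of clone-named and 16.5% of all other peaks (16.1 to 16.8%). A single block made up 59.4% of LINC peaks (56.1 to 62.6%) and 60.3% of other peaks (59.8 to 60.7%), with overlapping intervals. From first to last base, introns included, the median span was 769 bases for LINC peaks and 635 for other peaks. Better supported LINC peaks were longer, with a median of 600 bases (570 to 661) at an FDR under 0.001 and 361 bases (329 to 421) above it. The corresponding medians of other peaks were 539 and 211 bases, so the distance to the rest of the list was wider among weak peaks.

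The most covered sequence in a LINC gene belonged to LINC02456, whose only peak ran as 1 block over 33120 bases at chr12:102282421-102315540. Its fold enrichment of 9.80 and log10 p of -2.13 are a ladder pair, its named exon belongs to another gene, and 399 of its bases are shared with a peak of IGF1, the gene of insulin-like growth factor 1, on the opposite strand. That IGF1 peak carries the same pair of values. LINC01915 likewise owed 10348 covered bases to 1 peak of 12 blocks with a fold enrichment of 8.71 and a log10 p of -1.85. By contrast LINC00662, with 16670 bases over 28 peaks, and LINC00963, with 8190 bases over 13, reached their totals with peaks of at most 2160 and 1710 bases.

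By the list's own annotation, 830 LINC peaks (97.4%) were in exons outside UTRs, 14 in a 3′-UTR and 8 in a 5′-UTR, against 31.0% of other peaks in such exons. A transcript without a coding sequence has no UTRs of its own, and RefSeq calls 365 of the 375 LINC names long noncoding RNAs and 3 protein-coding. Where the exon belonged to a transcript of several exons, 49.0% of 745 LINC peaks were in the last exon, 30.1% in the first and 20.9% in between. Other exon peaks showed another order, with 33.6% in the last, 24.0% in the first and 42.3% in between. Antisense-named peaks had the same order as LINC peaks, with 49.6% in the last, 28.2% in the first and 22.2% in between, and clone-named peaks had 18.2% in between. A low share of internal exons was thus common to these 3 groups of genes. Peaks annotated to a UTR are left out of these shares. Among other peaks, 45% were in a 3′-UTR and 24.0% in a 5′-UTR. The order in other exon peaks is therefore not that of all other peaks, and the contrast is not between like sets. The exon named in the annotation belonged to another gene than the one assigned in 109 LINC peaks (13.1%, 11.0 to 15.6%), against 20.4% of other exon peaks (19.7 to 21.1%).

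LINC genes carried a single peak more often than the other genes taken as a whole, but not more often than antisense-named or clone-named genes. Of the LINC genes, 192 (51.2%, 46.2 to 56.2%) carried 1 peak, 82 carried 2 and 39 (10.4%) carried 5 or more. Of the other genes, 38.2% (37.5 to 39.0%) carried 1 peak and 12.7% carried 5 or more. Antisense-named genes carried 1 peak in 55.0% of cases (50.2 to 59.6%) and 5 or more in 6.60%, and clone-named genes in 60.0% (57.8 to 62.1%) and 4.43%. The mean was 2.27 peaks per LINC gene and 2.54 per other gene. Some rows of 1 gene cover the same bases, as 105 LINC peaks in 42 genes did. Merging them left 794 LINC peaks, and 204 LINC genes then had 1. The 10 LINC genes with the most peaks held 120 of the 852, or 14.1%.

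**Figure D3:**
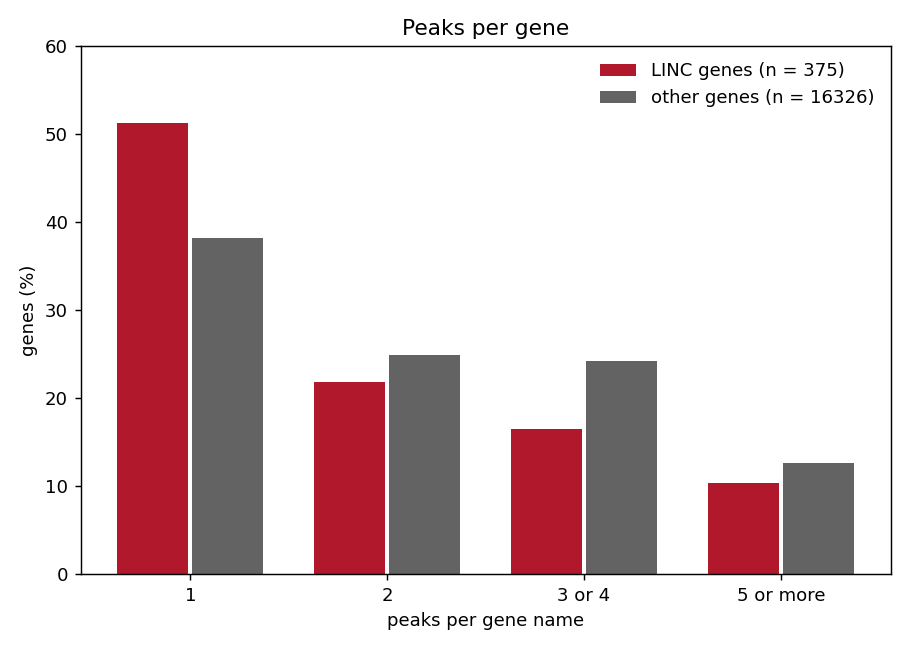
Share of genes in percent (y) by number of peaks per gene name (x) for the 375 LINC genes and the 16326 other genes. LINC genes have 1 peak in 51.2% of cases, against 38.2% of other genes, and 5 or more in 10.4%, against 12.7%.

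LINC00662 on chromosome 19, a transcript studied in glioma growth, had the most peaks, 28. Only 9 of these had an FDR under 0.001, and 18 were on the fold step. Its fold enrichments ran from 2.59 to 20.7 with a median of 6.54, and its best supported peak, at chr19:27793431-27794334, had 4.46 with a log10 p of -25.6. The exon named for that peak belongs to another gene. The strongly supported peaks were thus a small share of the listed peaks of LINC00662. LINC00963 on chromosome 9, first studied in prostate cancer, had the next most peaks, with 13, all at an FDR under 0.001 and 1 on the step. Of its 13 fold enrichments 12 lay between 1.79 and 7.92, and 1, the value on the step, stood apart at 27.2. The best supported was a peak of 1710 bases in the last exon, with a fold enrichment of 5.82 and a log10 p of -568.

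LINC00707 on chromosome 10 had 12 peaks, of which 9 had an FDR under 0.001, with fold enrichments of 2.06 to 17.4. LINC01128 on chromosome 1 had 11, of which 6 passed, with a highest value of 15.3 in a last-exon peak of 2310 bases. LINC01145, also on chromosome 1, had 11 peaks too, but 9 of them were on the step and the named exon belonged to another gene in 5. LINC01278 on chromosome X had 10 peaks, of which 3 passed and 6 were on the step. LINC00472, a transcript studied as a tumour suppressor, had 9 peaks with 4 passing, and its best supported peak had a fold enrichment of 4.68 in the last exon. Genes with many peaks thus differed widely in how many of them were strongly supported.

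**Figure D4:**
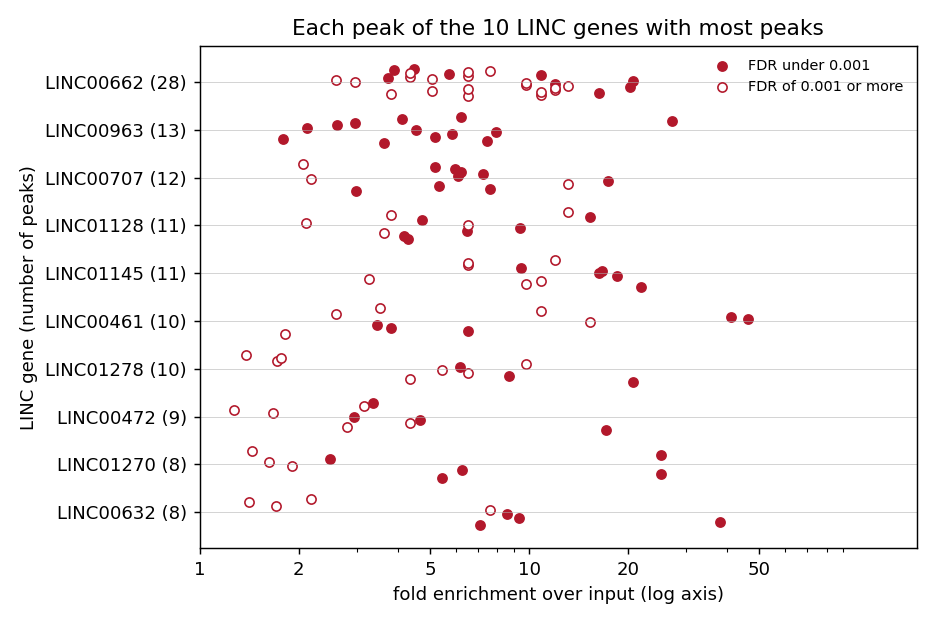
Fold enrichment over input (x, log axis) of each peak of the 10 LINC genes with the most peaks (y, with their number of peaks), filled where the FDR was under 0.001. All 13 points of LINC00963 are filled, against 9 of 28 for LINC00662, and LINC00461 has 2 points at 40.9 and 46.3.

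LINC00461, listed in RefSeq as MIR9-2HG because it hosts a hairpin of the neural microRNA miR-9, had 10 peaks on chromosome 5. A pair of them stood apart from the rest, with fold enrichments of 46.3 and 40.9 and log10 p of -28.2 and -29.7, while the other 8 lay between 1.82 and 15.3. These 2 peaks share bases, neither was on a whole multiple of the step, and the exon named in both belongs to another gene. No LINC peak block contained one of the 1562 microRNA hairpins compared. LINC00632 on chromosome X, the locus that gives rise to the circular RNA CDR1as, had 8 peaks and 12687 covered bases. Its peaks numbered 6 in the last exon, with fold enrichments of 1.41 to 9.32. The highest value, 38.1, was in exon 4 of 5 and on the step, and its longest peak covered 7377 bases with a fold enrichment of 7.08.

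The lowest p of any LINC peak was that of LINC01578, now named CHASERR, a noncoding RNA known to restrain its neighbour CHD2. Its peak at chr15:92888301-92898089 covered 449 bases in 3 blocks with a fold enrichment of 6.73 and a log10 p of -1660. The list calls it a 5′-UTR peak, and 69 of its bases are shared with a CHD2 peak of fold enrichment 1.86 on the same strand. The other 2 peaks of the gene had fold enrichments of 4.58 and 1.34. LINC00511 on chromosome 17, a transcript studied in several cancers, came next with a log10 p of -1440 and a fold enrichment of 11.4 in a last-exon peak of 1561 bases, at chr17:72403438-72419339. Its 7 peaks ran from 2.49 to 12.0, and 6 had an FDR under 0.001. Both top peaks lay off the ladder.

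LINC02593 had 15.5 with a log10 p of -488, LINC00847 had 11.4 with -465, and LINC00205 had 13.2 with -402 for the fold enrichment and log10 p of their best supported peaks. In LINC00205 the other 2 peaks, both in the last exon, were strong as well, with 7.89 and 6.49 and log10 p of -359 and -268. LINC00847 had 3 strongly supported rows with 11.4, 11.5 and 13.1, which overlap each other and count as fewer once merged. LINC00667 had 4 of its 5 peaks between 6.51 and 13.1 with log10 p of -101 or lower, while the fifth, of 60 bases, had 1.77 with -1.33. These genes carried high fold enrichment together with strong support.

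Among the 10 LINC genes of lowest p, some peaks could not be given to 1 gene. The LINC01764 peak (fold enrichment 12.1, log10 p -333) shared 489 of its 1853 bases with a peak of UCA1, a noncoding RNA first described in bladder cancer, on the opposite strand, whose own fold enrichment was 18.3. The LINC00852 peak (5.04, log10 p -204) shared 636 of its 685 bases with a TATDN2 peak on the same strand, and the list placed it in a 3′-UTR. For LINC00339 all 4 peaks shared bases with peaks of CDC42, the gene of a small GTPase, on the same strand, and the 3 strongly supported ones had fold enrichments of at most 8.57. Over the whole set, 32 LINC peaks in 28 genes (3.76%, 2.67 to 5.25%) shared bases with a row of another gene, against 4.21% of other peaks. Of the 32, 16 met a row on the same strand, 16 met rows on the opposite strand only, and 10 had at least 50% of their bases in common with it.

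The highest fold enrichments at an FDR under 0.001 came with weaker support. LINC02076 on chromosome 17 led with 69.7 and a log10 p of -38.1, and its other 2 peaks had 21.8 and 13.1, all on the step. LINC02878 followed with 61.0, LINC00461 with 46.3, LINC01694 with 44.7 and LINC00618 with 41.4. LINC01415 had 40.3, LINC01521 and LINC01561 had 39.2 each, LINC00632 had 38.1 and LINC01551 had 35.9. LINC00618 and LINC01415 had no other peak, and their log10 p were -10.8 and -10.5. No gene was among both the 10 of highest fold enrichment and the 10 of lowest p. With lists of 10 out of 375 LINC genes, little or no sharing is usual by chance, so this count says little about the genes.

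Of 30 LINC genes known from glioma studies, 13 had a peak under a LINC name. What share of all LINC genes has a peak was not counted. The 13 genes held 77 peaks, of which LINC00662 alone held 28, LINC00707 12 and LINC00461 10. Figures over the 77 peaks therefore lean on a few genes. Their median fold enrichment was 6.07, against 7.63 for all LINC peaks. An FDR under 0.001 was reached by 48.1% of the 77, against 44.0% of all LINC peaks. Such a peak was found in 9 of the 13 genes, against 53.1% of all LINC genes. LINC00839 had 2 of these peaks (5.54 and 4.14), LINC00525 had 1 (11.1), LINC00467 had 1 (5.99), and LINC01116 had 1 (5.78). The 4 without such a peak were LINC00115, LINC00174, LINC00475 and LINC01446, with highest fold enrichments of 2.65, 2.83, 9.80 and 14.2. In the LINC00467 and LINC00115 peaks given here the named exon belongs to another gene. Of the 17 names without a LINC row, 5 are older names of genes that RefSeq now lists otherwise, and 4 of these had peaks under the current name. NORAD, the former LINC00657, which keeps the genome stable by binding Pumilio proteins, had 1 peak with a fold enrichment of 9.02 and a log10 p of -926. CYTOR (LINC00152) had 6 peaks with a highest value of 20.7, PRECSIT (LINC00346) had 3 with 17.9, and SLC44A3-AS1 (LINC01057) had 3 with 9.80. Such renamed genes are outside the name rule. There were 106 of them in the rest of the list, with 345 peaks, a median fold enrichment of 6.54 and 45.2% at an FDR under 0.001.

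The study's supplement names 10 LINC genes among the transcripts whose m6A it lists as changed after HNRNPC silencing, and all 10 had peaks. They were chosen on libraries of this series, so their presence is not independent evidence. Their 38 peaks had a median fold enrichment of 5.36, and 63.2% had an FDR under 0.001, against 44.0% of all LINC peaks. Beside LINC00205 and LINC00667, LINC01270 had 8 peaks, with a pair of overlapping ones at 25.1 and log10 p of -132 and -131. LINC02732 had 14.0 with -164, LINC01547 had 10.4 with -63.6, LINC01719 had 13.1 with -48.4 and LINC01852 had 9.67 with -18.1 in their best supported peaks. The exon named for the LINC01547 peak belongs to another gene. LINC00899 had 6 peaks, all between 1.67 and 3.24. The remaining 2 also had low fold enrichments in their best supported peak, LINC01534 with 1.90 and LINC02798 with 3.72. At an FDR under 0.001, each of the 10 genes had a peak, against 53.1% of all LINC genes. Of 29 LINC genes in the supplement's list of changed RNAs, 26 had a peak, 80 peaks in all with a median fold enrichment of 5.39. These genes too were chosen by the same study in the same cells, so their having peaks is not independent evidence. The share of all LINC genes that have a peak was not counted beside it.

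LINC peaks were spread unevenly over the chromosomes. Chromosome 1 held 131 of them in 51 genes, or 15.4% (13.1 to 18.0%), against 9.68% of other peaks, and chromosome 21 held 35 (4.11%, 2.97 to 5.66%), against 1.15%. Chromosome 11 held 20 (2.35%, 1.52 to 3.60%), against 5.11%. How many LINC genes each chromosome carries was not set against these counts. On chromosome 9, 84.0% of 25 LINC peaks had an FDR under 0.001, and 13 of the 25 belong to LINC00963.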

How the data were processed

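MeRIP-seq of U251 cells was deposited by the authors as one peak list of 42272 rows and 24 columns. The deposited fold enrichment is a linear ratio, immunoprecipitate over input, and its scaling to library size is not stated. The authors' p-value is at or below 0.05 in each row. Log10 p and log10 FDR were used as scores as deposited. In the submitters' processing notes, fastp and HISAT2 are named. For the peak caller, build and annotation, the sources used here give no name. Gene spans overlapped those of the RefSeq table of GRCh38.p14 in 99.5% of 14245 genes, so positions are read as GRCh38, and 44.2% had the same first base.

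Members were the rows with a LINC name. The members, gene lists and comparisons were chosen with earlier results of these data known. Covered bases are the sum of exon block sizes. Medians have exact binomial 95% intervals and shares Wilson intervals. The fold step was the value between 0.8 and 1.5 whose multiples matched most rows at the printed 3 digits. Overlaps needed 1 shared base of exon block. Of the LINC names, 341 are current RefSeq symbols, 30 have another symbol and 4 were not matched. The genes named are the 10 with most peaks, lowest p or highest fold enrichment at an FDR under 0.001, the 5 with most covered bases and members of the glioma list and of the study's list of changed m6A. LINC02226, LINC00265, IGF1, UCA1, TATDN2, CDC42, CHD2 and the renamed genes were chosen after their values were seen. No test between groups was possible, since no column holds values per library. Functions were tested on simulated data. Python 3.11.15, pandas 2.3.3, NumPy 2.4.6, SciPy 1.17.1 and matplotlib 3.10.9 were used.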

Additional observations from a re-analysis of the deposited data

How the results depend on the processing

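Each result was recomputed under the alternatives that apply to it, and no direction between LINC and other peaks was reversed in those run. Of 60 recomputed values 36 moved by less than their interval. With peaks at an FDR under 0.001 alone, 56.3% of LINC genes had 1 peak, the median fold enrichment was 8.71 (log2 difference to other peaks 0.67) and the median covered bases were 600 (log2 difference 0.15). With 1 peak per gene, that of lowest p, the LINC median fold enrichment was 8.71, and with the highest value per gene it was 9.80 (log2 difference 0.25). Without peaks that share bases with another gene the log2 difference in fold enrichment was 0.51 and 98.7% of LINC peaks were in exons. Without peaks whose named exon belongs to another gene it was 0.53. Beside other exon peaks alone, the share of LINC peaks at an FDR under 0.001 was lower by 4.60 percentage points (LINC minus other -4.60), against -18.3 beside all other peaks. At an FDR under 0.05 the LINC share was 67.0% and the difference -14.9. The median genomic span of LINC peaks was 769 bases, and 1.17% shared at least 50% of their bases with another gene. In 2 alternatives chosen after seeing the data, LINC peaks off the fold step had a median fold enrichment of 4.72, 421 covered bases and 65.8% at an FDR under 0.001 (difference -8.66), and LINC peaks of 1 block had log2 differences of 0.63 in fold enrichment and 0.48 in covered bases, 420 covered bases and a support difference of -12.1. Depth per library is unknown, so how it limits weak LINC peaks cannot be given. No paired analysis was possible because no column carries a replicate.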
